A study of Mus musculus with 6 samples.

Results

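6 transcripts that encode sensors of RNA or DNA in the cytosol are described here across 4 two-colour expression arrays of mouse colonic mucosa. They are Ddx58, Ifih1 and Dhx58, the RIG-I-like helicases, together with Ddx60, Zbp1 and Eif2ak2. The 6 genes were chosen by name and function with earlier results of these data known, so counts of members set beside all genes are descriptions. Each probe was matched by gene name or by the RefSeq accession that the array design carries. This gave 11 probes of 21508 named probes kept and 6 genes of 14702 genes tested. Every member passed the filter on dim probes, and none of its spots was saturated.

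Each array compared the RNA of 1 Tlr2-/- sample with that of 1 wild-type sample, so each genotype was represented by 4 samples. Tlr2 is the cell-surface receptor for bacterial lipoproteins, and the knockout samples lacked it by their labels. All 8 samples came from mice of the C57BL/6 strain at postnatal day 90, and the tissue was mucosa scraped from the colon, which holds epithelium together with immune and stromal cells. A pair takes its name from its knockout sample, which the labels number 1, 2, 4 and 5. The knockout RNA carried the green dye Cy3 on the arrays of pairs 1 and 2 and the red dye Cy5 on those of pairs 4 and 5. The labels do not say whether the samples of a genotype came from separate animals, so errors and p-values describe the spread between these samples. Precision is limited by there being 4 arrays.

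RIG-I, the product of Ddx58, binds short double-stranded RNA that ends in a triphosphate, and MDA5, the product of Ifih1, binds long double-stranded RNA. Both signal through the mitochondrial adaptor MAVS to interferon and NF-kappaB. LGP2, the product of Dhx58, lacks the signalling domains of those helicases and tunes their activity. The genes of this class are themselves induced by interferon in many cell types, through the transcription factor complex ISGF3, which binds a promoter sequence called the interferon-stimulated response element (ISRE).

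The promoters of the members are shown because the sensors had ratios on the same side of 0 on most arrays and because the ISRE is the element through which this class is known to be induced. RefSeq promoter windows on build GRCm38.p6, from 250 bases before the annotated start to 50 bases after it, were found for 4 of the 6 members. They lie at chr4:40239776-40240075 on the minus strand for Ddx58, chr8:61927837-61928136 on the plus strand for Ddx60, chr2:62646206-62646505 on the minus strand for Ifih1 and chr17:78882523-78882822 on the minus strand for Eif2ak2. The windows read 5′ to 3′ in the direction of the gene, and capitals mark each match to the ISRE-type motif GAAANNGAAA on either strand.
Ddx58: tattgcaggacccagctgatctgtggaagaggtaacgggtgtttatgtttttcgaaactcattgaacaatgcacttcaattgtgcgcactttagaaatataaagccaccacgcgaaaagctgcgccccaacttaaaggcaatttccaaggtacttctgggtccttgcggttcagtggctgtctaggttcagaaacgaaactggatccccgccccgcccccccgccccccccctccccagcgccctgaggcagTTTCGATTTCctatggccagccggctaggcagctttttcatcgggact
Ddx60: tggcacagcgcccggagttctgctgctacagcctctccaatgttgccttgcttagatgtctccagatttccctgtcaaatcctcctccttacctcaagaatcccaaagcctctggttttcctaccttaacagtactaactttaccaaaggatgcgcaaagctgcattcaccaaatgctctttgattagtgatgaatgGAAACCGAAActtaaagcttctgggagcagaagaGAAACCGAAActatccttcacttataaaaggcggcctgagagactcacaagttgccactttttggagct
Ifih1: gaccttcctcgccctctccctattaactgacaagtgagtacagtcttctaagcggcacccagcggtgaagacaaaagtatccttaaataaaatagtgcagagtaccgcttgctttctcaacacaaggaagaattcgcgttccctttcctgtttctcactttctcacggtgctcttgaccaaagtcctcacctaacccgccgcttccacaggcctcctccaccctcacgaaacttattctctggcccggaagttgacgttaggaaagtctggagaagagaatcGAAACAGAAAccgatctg
Eif2ak2: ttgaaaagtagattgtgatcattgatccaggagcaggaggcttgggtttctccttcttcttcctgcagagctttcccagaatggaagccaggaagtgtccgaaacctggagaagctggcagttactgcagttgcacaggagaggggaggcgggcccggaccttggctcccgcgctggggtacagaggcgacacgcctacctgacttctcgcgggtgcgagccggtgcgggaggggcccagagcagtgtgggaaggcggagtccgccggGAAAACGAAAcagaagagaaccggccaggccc
All 4 windows held the ISRE-type motif, against 456 of the 11760 tested genes that had a window (3.88%) and 1131 of 32851 windows in all (3.44%). The Ddx60 window held 2 matches, at bases -53 to -44 and -19 to -10 from the start, and both read GAAACCGAAA. The Ddx58 match lay on the strand opposite to the gene, at bases 3 to 12 after the start. The Ifih1 match lay at bases 33 to 42 and the Eif2ak2 match at bases 19 to 28, each on the strand of its gene. A second motif, the interferon-gamma-activated site in its general form TTCNNNGAA, which reads the same on both strands and was not seen to overlap the first, was found in the Eif2ak2 window alone among these 4, at bases -178 to -170, against 8.58% of tested genes with a window. Dhx58 and Zbp1 were not matched to a window. A match is a description of the sequence and does not show binding.

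**Figure D1:**
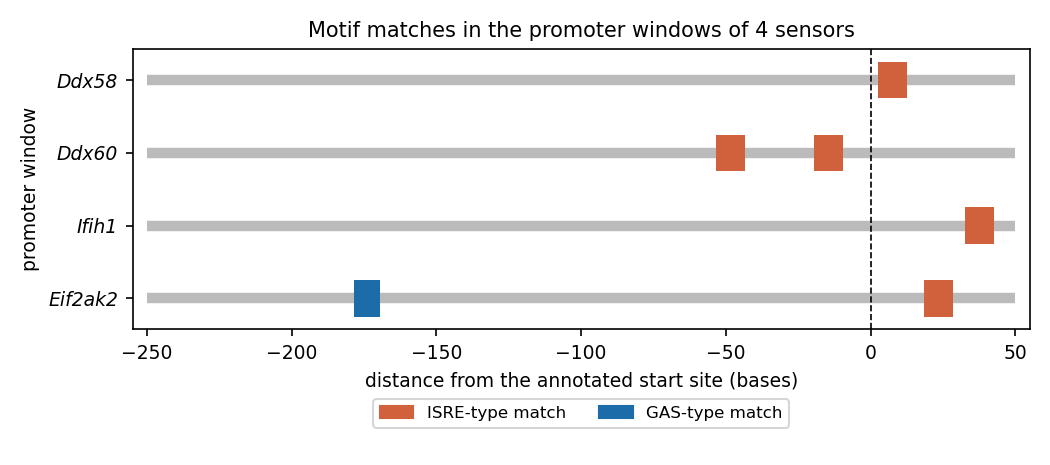
Promoter windows of 4 sensor genes, drawn from 250 bases before to 50 bases after the annotated start (dashed line, x axis in bases). Orange blocks are ISRE-type matches, of which Ddx60 has 2 and the other genes 1, and the blue block is the GAS-type match of Eif2ak2.

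The targeted gene and the state of the arrays were examined first. Tlr2 was measured by 1 probe, and its log2 ratio, knockout over wild type, was -4.42, -5.31, -5.50 and -4.20 in pairs 1, 2, 4 and 5, so all 4 knockout labels carried less of its RNA than their wild-type partners. Between 63.33% and 76.53% of 43379 spots were well above background in a channel. Over 14691 genes the ratios of pair 1 correlated negatively with those of pair 2 (r = -0.21), pair 4 (r = -0.42) and pair 5 (r = -0.10), whereas pairs 2, 4 and 5 correlated with each other at 0.42 to 0.57; genes are not independent replicates, and these values are descriptions. Cell type markers also moved between arrays. The median log2 ratio of 5 adipocyte markers was -0.34, -0.04, 1.26 and 2.82 in pairs 1, 2, 4 and 5, and that of 3 pan-leukocyte genes was 0.97, -0.31, -0.32 and 0.04. For 6 epithelial markers it was 0.46, 0.47, -0.38 and -0.54, but 4 of the 6 were saturated on all arrays and all 6 on at least 1. The less saturated Epcam gave 0.03, 0.15, 0.27 and 0.05, and Cdh1 gave -0.50, 0.41, 0.98 and 0.40. The epithelial median therefore does not show a change in epithelium. The summed level of the adipocyte markers spanned 10.09 to 15.10 log2 units in knockout samples and 10.33 to 12.05 in wild-type samples. Of 8 measured T, NK and innate lymphoid markers, 2 were more than 1.6-fold lower on at least 2 arrays and lower on all 4. These were the granzymes Gzma (mean -1.46 ± 0.797, SD, n = 4) and Gzmb (-0.96 ± 0.618). The summed level of the list spanned 10.09 to 10.60 in knockout and 10.64 to 11.17 in wild-type samples. The means of Cd3e, Cd4 and Il7r were -0.08, -0.05 and 0.00, and those of Nkg7, Cd8a and Cd3g -0.40, -0.34 and -0.23. In pair 1 Nkg7, Cd8a and Cd3g were higher in the knockout (0.71, 0.56 and 0.21), so this sum does not describe the list as a whole. The 7 measured macrophage and dendritic cell markers had a median between -0.30 and 0.13 on each array, and their summed level spanned 11.38 to 11.79 in knockout and 11.77 to 12.24 in wild-type samples. That sum was mostly Cd14, by far the brightest of them, with ratios of -0.66, -0.64, 0.05 and -0.74 in pairs 1, 2, 4 and 5. The means of the other markers lay between -0.25 and 0.11, so the sum does not describe the list as a whole. The part of these differences in the sensor values was not tested, and in scraped mucosa fewer cells of a type cannot be told apart from less RNA per cell.

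Nearly every sensor was higher in knockout mucosa on nearly every array, and Ddx60 had the highest mean. Of the 24 values that 6 genes and 4 arrays give on the brightest probe of each gene, 23 were above 0. In pair 1, probes 2 and 4 of Ddx58 (-0.29 and -0.05) and the second probe of Ifih1 (-0.09) were also below 0. The median over the members was 0.80, 0.59, 0.65 and 1.13 in pairs 1, 2, 4 and 5, while the median over all genes tested lay between -0.03 and 0.00 on each array. The median of the 6 mean log2 ratios was 0.65 and their range 0.59 to 1.86, against a median of -0.01 over all genes. 5 members, all but Ifih1, had a positive ratio on all 4 arrays, which 7.18% of tested genes also had.

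The submitters' rule for a transcript that differed asks for more than 1.6-fold on at least 2 arrays with no array pointing the other way. It was met in the upward direction by 4 of the 6 members, namely Ddx58, Ddx60, Zbp1 and Eif2ak2, against 112 of 14702 genes (0.762%), and in the downward direction by 0 members against 105 genes (0.714%). Ddx60 was the member at least 1.6-fold higher on all 4 arrays, which 13 genes in all reached (0.0884%). In Ddx60, Dhx58 and Zbp1 all 4 knockout levels lay above all 4 wild-type levels, a pattern shown by 326 genes (2.22%). None of the 6 passed limma's test at a Benjamini-Hochberg adjusted p under 0.05, and neither did any other gene (0% of those tested). Tlr2, the targeted gene, also fell short of it (adjusted p = 0.314 by limma) at a mean log2 ratio of -4.86. A gene that was not called on these 4 arrays is therefore not shown to be unchanged. 5 members and 1194 genes in all had an unadjusted limma p under 0.05, and the adjusted p of the members lay between 0.446 and 0.623.

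**Figure D2:**
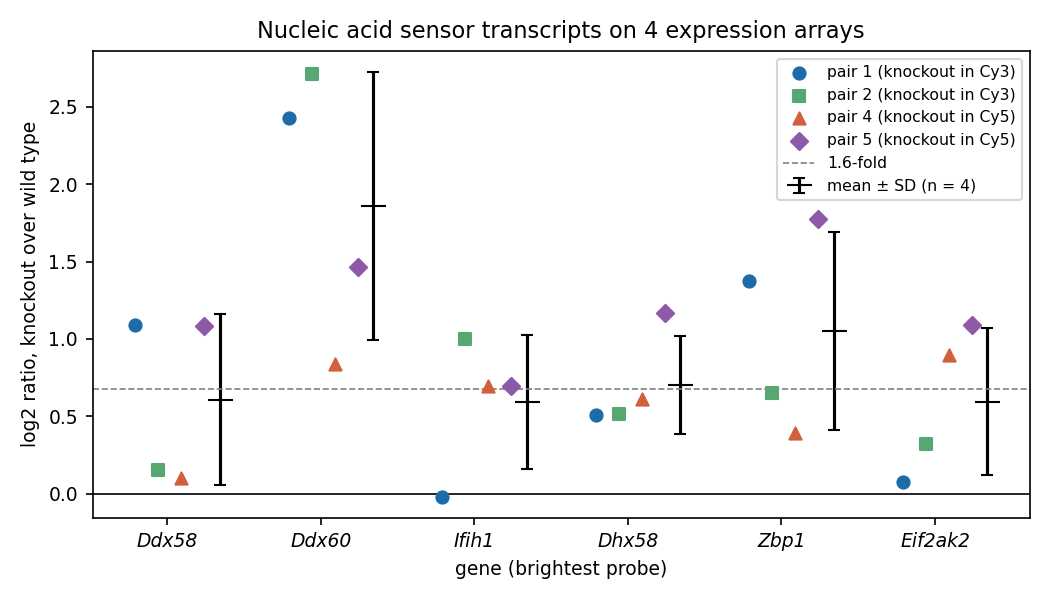
Log2 ratio of knockout over wild type (y axis) for the brightest probe of each of the 6 sensor genes (x axis), 1 symbol per array, with the mean and SD of the 4 arrays as a bar beside them; the dashed line marks 1.6-fold. Ddx60 lies above the line on all 4 arrays, and the Ifih1 value of pair 1 is the one value below 0.

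Ddx58 encodes RIG-I. Its brightest probe read 9.57, 9.07, 8.81 and 9.52 log2 intensity in the knockout samples of pairs 1, 2, 4 and 5, and 8.48, 8.92, 8.70 and 8.44 in their wild-type partners. The lowest knockout sample, of pair 4, was below the highest wild-type sample, of pair 2, so the groups overlapped. The log2 ratios were 1.09, 0.15, 0.10 and 1.08, which means that pairs 1 and 5 carried the difference and pairs 2 and 4 were near 0. On average the knockout was higher by 0.61 ± 0.552 (SD, n = 4) or 1.52-fold, with limma's standard error 0.251 and adjusted p = 0.623. The other 3 Ddx58 probes target the same transcript, so they are not further replicates. In order of brightness, probe 2 gave -0.29, 1.11, 0.39 and 0.56, probe 3 gave 0.48, 0.44, 0.16 and 0.33, and probe 4 gave -0.05, 0.20, 0.32 and 0.11. The probes therefore did not agree on which pair differed most: pair 1 was highest on probes 1 and 3 and lowest on probes 2 and 4. Probe 4 was well above background in 2 of the 4 wild-type channels. The mean ratios of the 4 probes ranged from 0.15 to 0.61, and the submitters' rule was met by the brightest alone.

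Ifih1 encodes MDA5. The brightest of its 2 probes read 12.19, 12.24, 12.46 and 12.83 in knockout samples of pairs 1, 2, 4 and 5 and 12.21, 11.23, 11.77 and 12.14 in wild type. The groups overlapped because the wild-type sample of pair 1 was at the level of its knockout partner. The log2 ratios were -0.02, 1.00, 0.69 and 0.69, so pair 1 was near 0 and the other 3 pairs each exceeded 1.6-fold. The mean was 0.59 ± 0.432 (SD, n = 4), or 1.51-fold, with a standard error of 0.197 and adjusted p = 0.593 by limma. The slightly negative value of pair 1 alone kept Ifih1 from meeting the submitters' rule. Without that pair Ifih1 met it and exceeded 1.6-fold on all remaining arrays. Over all genes tested, 388 (2.64%) then met the rule upward and 98 were at least 1.6-fold higher on all remaining arrays. The second probe repeated the order of the arrays, with -0.09, 1.04, 0.45 and 0.53.

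Dhx58 encodes LGP2, the helicase that regulates the other RIG-I-like receptors. Its single probe read 9.72, 9.82, 9.91 and 10.38 in knockout samples of pairs 1, 2, 4 and 5 and 9.21, 9.30, 9.30 and 9.21 in wild type. The wild-type samples lay close together (SD 0.0504), and every knockout sample was above all of them. In log2 units the pairs differed by 0.51, 0.52, 0.61 and 1.17. Pair 5 alone exceeded 1.6-fold, so the gene did not meet the rule although its 4 ratios were the least scattered of the 6 members. The mean was 0.70 ± 0.316 (SD, n = 4), 1.63-fold, with a standard error of 0.128 and adjusted p = 0.593 by limma.

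Ddx60 encodes a larger DExD/H-box helicase that has been described as a cofactor of the RIG-I-like receptors. Its brightest probe read 10.92, 10.49, 9.17 and 10.44 in knockout samples of pairs 1, 2, 4 and 5 and 8.49, 7.78, 8.33 and 8.98 in wild type. The groups did not overlap, with the knockout sample of pair 4 closest to the wild-type range. Log2 ratios were 2.43, 2.71, 0.84 and 1.46, so each exceeded 1.6-fold. The mean of 1.86 ± 0.864 (SD, n = 4), 3.63-fold, was the 3rd highest of all 14702 genes; limma gave a standard error of 0.146 and adjusted p = 0.446. Both Ddx60 probes took their gene name from the authors' deposited table of changed transcripts, so the gene was among those tested because the authors had listed it, and its rank and its place in the counts above are descriptions that this choice favours. The 2 arrays with the knockout in Cy3 averaged 2.57 and the 2 with it in Cy5 averaged 1.15, so the difference was larger in the first orientation and positive in both. The second Ddx60 probe gave 1.92, 2.07, 0.34 and 1.17, in the same order over the arrays and again with no overlap between genotypes. Its mean was 1.37 ± 0.793 (SD, n = 4), and it met the submitters' rule without reaching 1.6-fold in pair 4.

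Zbp1 encodes a sensor of nucleic acids in the Z conformation, which can start necroptosis through RIPK3. Its single probe read 11.05, 10.91, 10.86 and 11.93 in knockout samples of pairs 1, 2, 4 and 5 and 9.68, 10.26, 10.46 and 10.15 in wild type. Every knockout sample was above every wild-type sample. The log2 ratios were 1.37, 0.65, 0.39 and 1.78, and pairs 1 and 5 were past 1.6-fold. The mean was 1.05 ± 0.638 (SD, n = 4), or 2.07-fold, the 34th highest of all genes tested, with a standard error of 0.286 and adjusted p = 0.593 by limma. Both dye orientations gave similar means, 1.01 with the knockout in Cy3 and 1.09 with it in Cy5.

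Eif2ak2 encodes PKR, a kinase that is switched on by double-stranded RNA and halts translation by phosphorylating eIF2alpha. Its single probe read 9.51, 9.77, 10.76 and 11.03 in knockout samples of pairs 1, 2, 4 and 5 and 9.43, 9.45, 9.87 and 9.93 in wild type. Both samples of pairs 4 and 5 were higher than those of pairs 1 and 2, and the groups overlapped. Pair by pair the log2 ratios were 0.08, 0.32, 0.89 and 1.09, with the first 2 near 0 and the other two past 1.6-fold. The mean was 0.60 ± 0.476 (SD, n = 4), 1.51-fold, with a standard error of 0.0997 and adjusted p = 0.593 by limma. The split followed the dyes: the mean was 0.20 where the knockout was in Cy3 and 0.99 where it was in Cy5, and with 2 arrays in each orientation the dye and the pairs cannot be told apart. Pairs 4 and 5 were also the arrays on which the adipocyte markers were higher in the knockout.

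**Figure D3:**
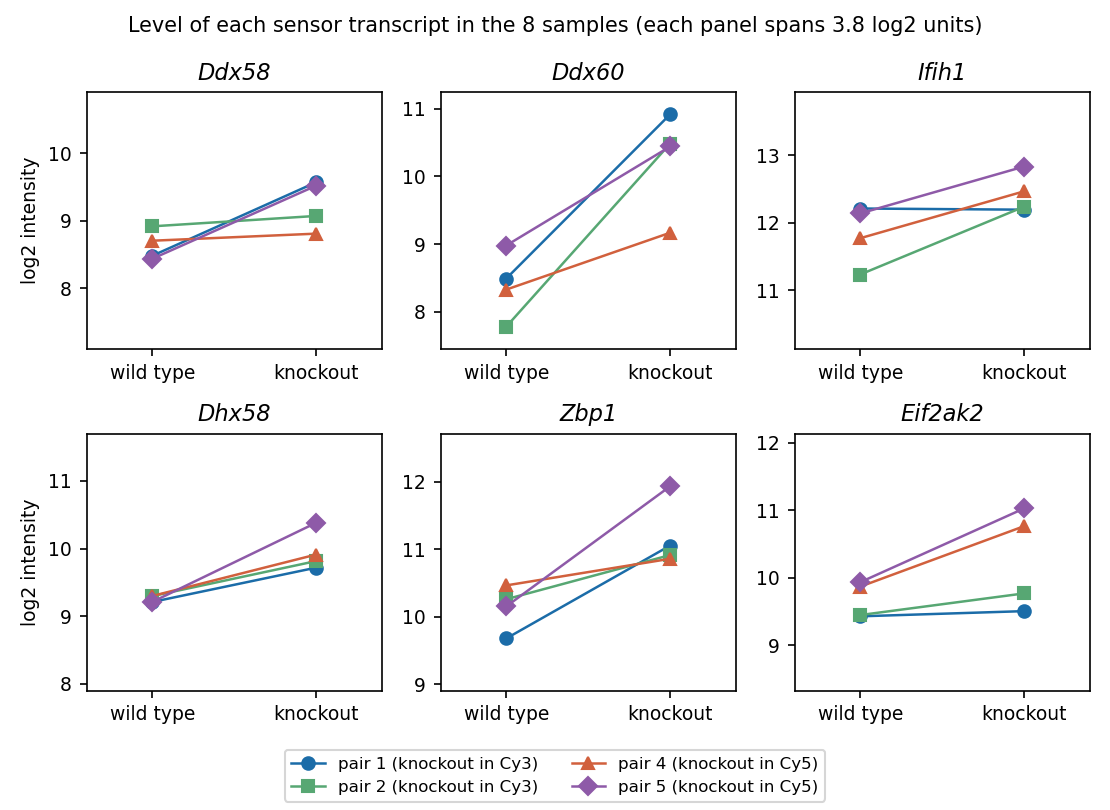
Log2 intensity of the brightest probe of each sensor gene in wild-type and knockout samples, with a line joining the 2 samples of an array; every panel spans the same number of log2 units, and levels are not comparable between genes. In Ddx60, Dhx58 and Zbp1 all 4 knockout samples lie above all 4 wild-type samples.

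The members did not follow one profile over the arrays. Ddx60 was the highest member in pairs 1 and 2, Eif2ak2 in pair 4 and Zbp1 in pair 5. Ifih1 was the lowest in pairs 1 and 5 and Ddx58 in pairs 2 and 4. Pair 5 was the array on which all 6 members exceeded 1.6-fold, compared with 3 members in pair 1, 2 in pair 2 and 3 in pair 4. The share of all genes tested past 1.6-fold on each single array was not counted. These counts therefore describe the members and do not show that pair 5 was particular for them. Without pair 5, Ddx60 was the single member that met the submitters' rule, against 94 of 14702 genes upward (0.639%). On its brightest probe Ddx58 shared one shape with Zbp1, with pairs 1 and 5 above pairs 2 and 4, while Eif2ak2 and Ifih1 were near 0 in pair 1. The other Ddx58 probes did not show that shape.

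**Figure D4:**
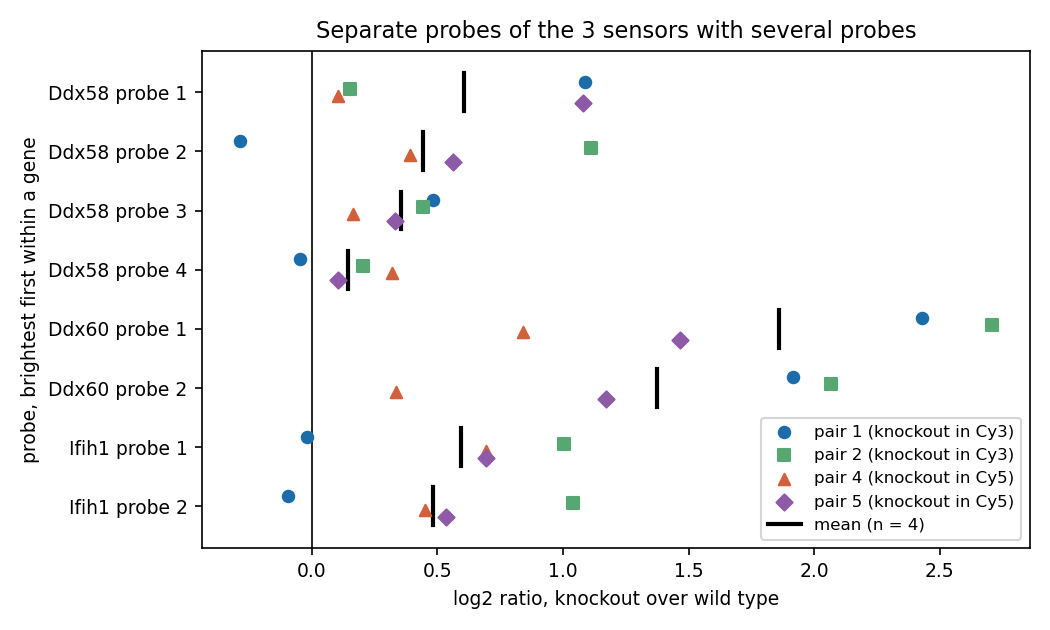
Log2 ratio of knockout over wild type (x axis) for each probe of Ddx58, Ddx60 and Ifih1 (y axis), 1 symbol per array with the mean as a black bar. The 2 Ddx60 probes and the 2 Ifih1 probes order the arrays alike, and the 4 Ddx58 probes do not.

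The authors' deposited table of transcripts with increased expression lists 4 members. In the authors' deposited table the ratios on arrays 1 to 4, whose numbering was not matched to the pairs used here, are 1.67, 1.49, 1.19 and 2.56 for Ddx58. The authors' deposited table gives 5.24, 8.80, 2.08 and 4.23 for Ddx60. For Dhx58 the authors' deposited table gives 1.25, 1.79, 1.82 and 2.82, and for Zbp1 2.33, 1.79, 1.56 and 4.32. It does not list Ifih1 or Eif2ak2. Dhx58 is thus a hit of the authors and not under the loess normalisation used here, and Eif2ak2 the reverse. With Agilent's processed signals, centred on each array's median, the same 4 genes as in the authors' deposited table met the rule. Of all genes tested, 291 (1.98%) met it upward with those signals.

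The genes through which the RIG-I-like receptors signal were centred near 0. Of 22 signalling genes, 1 met the submitters' rule upward and 0 downward, and their median mean log2 ratio was 0.03. The one was Azi2, an adaptor of the kinase TBK1, at 0.36, 0.76, 1.22 and 0.66 in pairs 1, 2, 4 and 5 (mean 0.75 ± 0.356, SD, n = 4). Mavs, the common adaptor of RIG-I and MDA5, averaged -0.13 ± 0.384, and Trim25, a ubiquitin ligase that activates RIG-I, 0.19 ± 0.275. Rnf135, the ligase also known as Riplet, averaged -0.14 ± 0.0595, and Zcchc3, a co-sensor, 0.39 ± 0.656 (SD, n = 4 for each). Limma called 0 genes of this list and 0 of each list that follows; an unadjusted limma p under 0.05 was reached by 1 of these 22 genes, 6 of the 16 regulators, 9 of the 15 other antiviral genes, 1 of the 18 helicases, 3 of the 15 eIF2alpha pathway genes, 2 of the 20 DNA sensing genes and 0 of the 8 and 5 genes of the necroptosis and endosomal receptor lists.

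Among 16 measured regulators of these receptors, 2 met the rule upward and 1 downward, with a median of 0.05. Usp18, the protease that removes ISG15 from proteins and restrains interferon receptor signalling, averaged 1.34 ± 0.543. Isg15, the ubiquitin-like modifier itself, averaged 1.12 ± 0.490. Rnf125, a ubiquitin ligase that marks RIG-I and MDA5 for degradation, was the one that met it downward, with -1.31, -1.02, -0.42 and -0.95 in pairs 1, 2, 4 and 5 (mean -0.93 ± 0.370, SD, n = 4) and no overlap between genotypes. Cyld, Otud5, Tnfaip3 and Atg5, which restrain the pathway, averaged 0.27 ± 0.460, -0.05 ± 0.161, 0.41 ± 0.391 and 0.13 ± 0.199.

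Other antiviral proteins that bind or degrade RNA were the list with the median closest to that of the sensors. Of 15 measured genes, 5 met the rule upward and 0 downward, 9 were positive on all 4 arrays, and the median was 0.53. Oasl2 and Oas2, of the oligoadenylate synthetase family, averaged 1.71 ± 0.730 and 1.09 ± 0.550. Ifit1, Ifit2 and Ifit3, which bind foreign RNA or assemble on it, averaged 1.30 ± 0.718, 1.19 ± 0.312 and 0.96 ± 0.546. Adar, the RNA-editing enzyme that keeps cellular double-stranded RNA from activating MDA5, had ratios of 0.67, 1.22, 0.66 and 0.34 and stayed short of the rule with 1 array past 1.6-fold. Oas1a and Oas1g averaged 0.46 ± 0.267 and 0.16 ± 0.0723. The ISRE-type motif was in 5 of the 11 windows found for this list (45.5%), those of Oas1a, Oas1g, Oas3, Ifit1 and Ifit3.

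**Figure D5:**
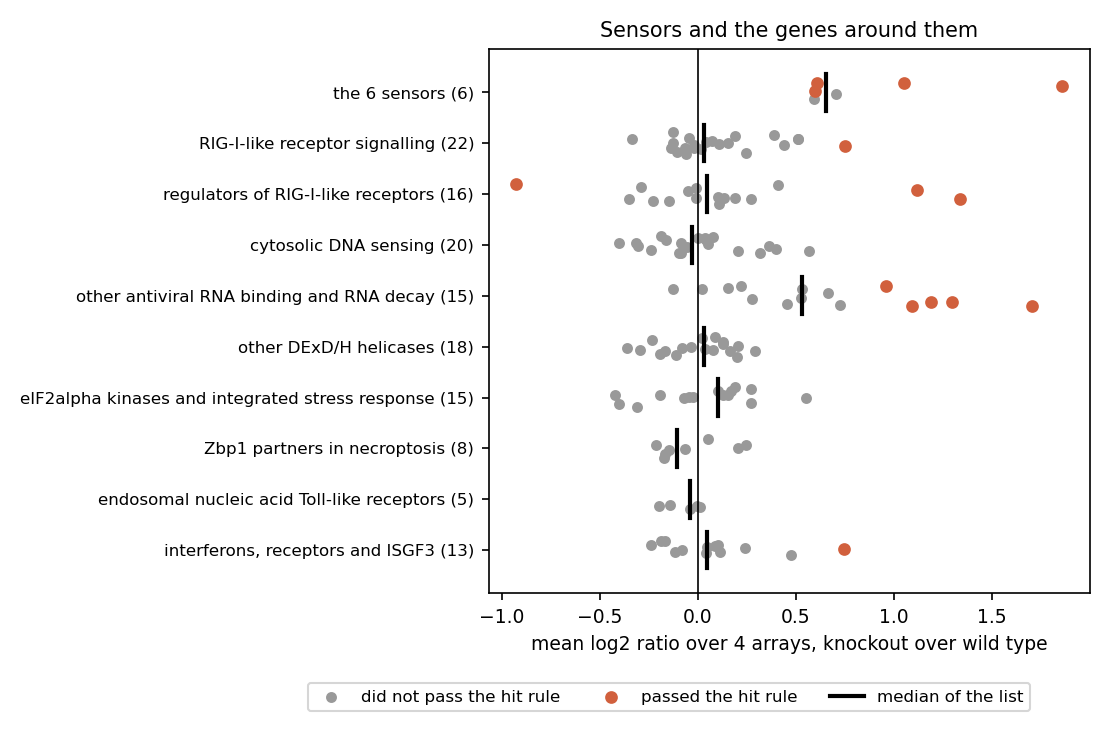
Mean log2 ratio over the 4 arrays (x axis) of each measured gene, 1 point per gene, in the 6 sensors and in 9 lists of related genes (y axis, number measured in brackets); orange points met the submitters' rule and black bars are list medians. The medians of the sensors (0.65) and of the other antiviral RNA-binding genes (0.53) are above those of the other lists, which lie between -0.11 and 0.10.

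Lists of relatives of the sensors by protein family or by function had medians between -0.11 and 0.10. Of 18 other DExD/H helicases, 0 met the rule, their mean log2 ratios spanned -0.36 to 0.29, and 0 of the 16 with a window held the ISRE-type motif. Ddx1, Ddx3x, Ddx5 and Ddx6, helicases of general RNA metabolism, averaged -0.11 ± 0.171, 0.02 ± 0.317, 0.13 ± 0.0817 and 0.20 ± 0.560. Of 15 genes of the eIF2alpha pathway, in which PKR acts, 0 met the rule, the median was 0.10 and the means spanned -0.42 to 0.55. The other kinases that phosphorylate eIF2alpha are Eif2ak1, Eif2ak3 and Eif2ak4, which answer to haem shortage, unfolded protein and amino acid shortage, and they averaged 0.10 ± 0.693, -0.03 ± 0.518 and 0.27 ± 0.208. Their substrate, Eif2s1, averaged -0.04 ± 0.135. Of 8 partners of Zbp1 in necroptosis, 0 met the rule, with Ripk1, Ripk3, Mlkl and Casp8 at 0.24 ± 0.514, -0.21 ± 0.171, 0.20 ± 0.140 and 0.05 ± 0.803. The ISRE-type motif was in 2 of 14 windows of the eIF2alpha list (14.3%) and 2 of 8 of the necroptosis list (25%). It was in 1 of 20 for signalling genes (5%), 1 of 11 for regulators (9.09%) and 2 of 12 for the interferon list (16.7%). The DNA sensing and endosomal receptor lists had 0 of 16 and 0 of 4. Among genes that met the rule upward it was in 16 of 97 (16.5%), and among those downward in 2 of 87 (2.3%). A link of motif and ratio was not tested.

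Sensors in other compartments or for DNA gave no member that met the rule. Of 20 measured genes of cytosolic DNA sensing, 0 met it and the median was -0.03. Cgas, the synthase that makes the second messenger cGAMP on binding DNA, averaged -0.09 ± 0.148. Ifi204, a DNA-binding protein of the interferon-inducible p200 family, had ratios of 0.71, 0.60, -0.02 and 0.98, so 2 arrays were past 1.6-fold and pair 4 fell just below 0, which the rule does not allow. Pyhin1 and Ddx41 averaged -0.10 ± 0.214 and -0.19 ± 0.222. Aim2 and Ifi205 were not well above background on enough arrays to be tested. Of 5 measured endosomal Toll-like receptor genes, 0 met the rule, and Tlr3, the endosomal receptor for double-stranded RNA, averaged -0.04 ± 0.134. Tlr9, Unc93b1 and Ticam1 averaged 0.01 ± 0.218, -0.14 ± 0.211 and -0.20 ± 0.460.

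Interferons, the cytokines that MAVS signalling induces, and their receptors were examined next. Probes for Ifnb1, Ifna4, Ifng, Ifnk and Ifne were well above background on 0 arrays in either genotype, so these cytokine transcripts have no usable ratio here. Ifna2 and Ifnl3 averaged -0.24 ± 0.284 and -0.08 ± 0.0690. Both probes were dim, at 6.44 to 7.01 and 6.36 to 6.60 log2 intensity, and that of Ifnl3 was well above background on 3 arrays in each genotype. These ratios therefore say little about a change in the 2 transcripts. The receptor chains Ifnar1 and Ifnar2 averaged 0.05 ± 0.220 and 0.10 ± 0.241.

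The genes nearest to the members in ratio over the 4 arrays were found by the root mean square difference of log2 ratios, over 14685 candidate genes. Nearest to the median profile of the 6 sensors were Trim30a (0.118), Parp14 (0.147), Slc6a6 (0.169), Igtp (0.177), Ankrd12 (0.182), Oas1f (0.196), Igf2bp2 (0.199) and Gprin3 (0.204). Trim30a had ratios of 0.64, 0.42, 0.60 and 1.11 in pairs 1, 2, 4 and 5 and was also the gene nearest to Dhx58 (0.0913). The gene nearest to Ifih1 was Ube2l6 (0.0199), the conjugating enzyme for ISG15, at 0.01, 1.00, 0.67 and 0.70. The nearest to Zbp1 was Ifit3 (0.167), the nearest to Ddx58 was Nat8l (0.0575) and the nearest to Eif2ak2 was Fmr1 (0.139). Ddx60 had no close match, since its nearest gene, Mme, differed by 0.469. With 4 arrays such distances are descriptions of shape, given without a test.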

How the data were processed

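Labelled RNA (0.4 ug per sample, per the labels) was hybridised to whole-genome arrays, knockout against wild type, with the dyes in both orientations. Per the file headers, the deposited scanner files hold median spot and local background intensity per channel from Agilent Feature Extraction 10.5.1.1, with flags as 0 or 1 values for spots above background or saturated; the submitters' processing notes name version 8.5.1.1. The deposited log10 ratio of Cy5 over Cy3 was used to check the channel direction. The authors' deposited table of hits gives each array's linear ratio; how they were normalised is not stated there.

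Median intensities were background-corrected with normexp (offset 50) and normalised within arrays by loess in limma 3.58.1 under R 4.3.3, with control spots at weight 0 and outlier spots left out. Levels in single samples were taken after quantile normalisation of average intensity between arrays. Of 41174 probes, 25316 had a gene symbol (219 of them, with both Ddx60 probes, only through the accession in the authors' deposited table) and 15858 had none. A probe was kept where 2 or more arrays flagged it well above background in the same genotype, and the brightest kept probe stood for its gene. The log2 ratios were fitted with lmFit and eBayes with a dye term, and p-values were adjusted by Benjamini-Hochberg over 14702 genes. The steps were tested on simulated data with known changes and less scatter between arrays than was fitted here. That test therefore does not show how often a change in these arrays is missed. The SD describes the spread of the 4 ratios. Limma's standard error describes their mean, after the dye term and the eBayes adjustment of the variance, so the values differ.

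The members and lists were chosen with earlier results of these data known. The genes named are Tlr2, the members, every gene of a list that met the submitters' rule with up to 4 further measured genes in list order, and the genes nearest in ratio; the markers, and genes listed as below background, complete the names. Some genes of the lists are not reported here. The motif search used RefSeq windows on GRCm38.p6. The 2 methylation arrays give positions on another build without gene names and were not analysed here. Alternatives were another background correction, Agilent's processed signals, scaling between arrays, no dye term, other filters, the mean of all probes, other fold thresholds and leaving out each pair.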

Additional observations from a re-analysis of the deposited data

Results flagged for a closer look

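The Dhx58 log2 ratio of pair 5, 1.17, stood apart from the other 3 arrays, which lay between 0.51 and 0.61: the gap was 0.841 of the whole range, above Dixon's critical value for a group of 4. It was the 1 such value in 36 groups of 4 examined, and chance alone marks about 1 group in 20. The 4 wild-type levels of this probe lay within 9.21 to 9.30, so the high ratio rested on the knockout level of 10.38. The mean of Dhx58 without pair 5 was 0.55.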

How the results depend on the processing

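Each log2 ratio is a difference within a pair, so the limma fit is itself paired. Across the expression and methylation arrays, which share the numbers 1 and 4 in the labels, no paired analysis was possible because the methylation arrays were not analysed here. All 6 member means stayed positive under every alternative run, and short of an adjusted p of 0.05 by limma under every alternative that has a test; the means within 1 dye orientation have none. The mean log2 ratio ranged over 0.15 to 0.77 for Ddx58, 1.15 to 2.57 for Ddx60, 0.46 to 0.80 for Ifih1, 0.51 to 0.91 for Dhx58, 0.81 to 1.34 for Zbp1 and 0.20 to 0.99 for Eif2ak2, and the adjusted p of Ddx60 over 0.116 to 1. Limma called 1 gene over all genes without background correction, 4 with Agilent's processed signals, 3 without the dye term and 1 with the strict filter, against 0, and no member was among them. Members at least 1.6-fold higher on all arrays numbered 2 (Ddx60 and Zbp1) with Agilent's processed signals and 0 with the mean of all kept probes. They numbered 1 to 2 on leaving out a pair, with Ifih1 added without pair 1. Over all genes tested, 46 were so with Agilent's processed signals and 8 with the mean of all kept probes, against 13. Without pairs 1, 2, 4 and 5 in turn, 98, 21, 33 and 18 genes were so. Members meeting the submitters' rule numbered 1 to 4 on leaving out a pair: Ddx60 alone without pair 5; Ddx58, Ddx60 and Zbp1 without pair 4; Ddx60, Ifih1 and Eif2ak2 without pair 1. They numbered 3 with the mean of all kept probes, which lost Ddx58 (mean 0.39). At a threshold of 2-fold they numbered 3, which lost Eif2ak2, and at 1.4-fold 5, which added Dhx58. Over all genes tested, 0.605% met the rule upward with the mean of all kept probes, 0.272% at 2-fold and 1.77% at 1.4-fold. The share was 0.633% without pair 2, 0.653% without pair 4 and 0.639% without pair 5. Genes meeting the rule upward numbered 388 (2.64%) without pair 1 and 291 (1.98%) with Agilent's processed signals, against 112 (0.762%), and downward 495 and 270 against 105. The cause was not tested. Signal over background limits probe 4 of Ddx58 and most interferon probes.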
